A study of Mus musculus with 16 samples.

Results

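The naive pluripotency transcription factors are the regulators that hold mouse embryonic stem cells (mESCs) in a state like that of the early epiblast. The 10 genes described here were Klf2, Klf4, Klf5, Esrrb, Nr5a2, Nr0b1, Tfcp2l1, Tbx3, Nanog and Zfp42, of 21154 genes that the arrays named through a RefSeq accession. They were measured by 14 probes, all non-control probes with an accession of one of these genes. A single probe reported 7 of the genes, and Tfcp2l1, Nanog and Nr5a2 had more than 1.

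Total RNA of 3 mESC lines, each grown in 2 media, was hybridised to 16 one-colour arrays. J1 is the wild-type line, a male line from which the others descend. TKO cells lack functional Dnmt1, Dnmt3a and Dnmt3b, which encode the DNA methyltransferases. In 3B3l cells Dnmt3a and Dnmt3b are knocked out and exogenous Dnmt3b and Dnmt3l are expressed constitutively. Serum cultures received 500 U/ml LIF and fetal calf serum. For 2 weeks 2i cultures received 1000 U/ml LIF with PD0325901, an inhibitor of the kinase MEK, and CHIR99021, an inhibitor of the kinase GSK3, in serum-free medium. The dose of LIF, the serum and the inhibitors changed together, so their parts in a 2i response cannot be told apart. J1 cells in serum were grown on inactivated feeder cells, and all other cultures were feeder-free. There were 4 arrays of J1-serum, 3 of J1-2i, 2 of TKO-serum, 3 of TKO-2i, 2 of 3B3l-serum and 2 of 3B3l-2i. The labels do not say whether the arrays of a group came from separate cultures, so p-values measure only the spread between arrays, which may be technical.

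LIF acts through Stat3 on Klf4 and Tfcp2l1, and a drop in MEK signalling releases Klf2, Nanog and other factors of this set. Inhibition of GSK3 stabilises beta-catenin, which lifts the repression that Tcf7l1 places on Esrrb, Tfcp2l1, Klf2 and Nanog. In serum these factors are expressed unevenly from cell to cell, and in 2i they are expressed at higher and more even levels. These arrays averaged over all cells of a culture, so fewer cells that express a gene and less RNA per cell cannot be told apart.

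The probe for Klf5 is shown because it showed the largest gap between replicate arrays of any leading probe and because it covers a shared part of its family. It is the 60-base probe listed with the study, 5′ to 3′, and the capitals mark the codons of the short linker that joins zinc fingers of this class.
Klf5 probe: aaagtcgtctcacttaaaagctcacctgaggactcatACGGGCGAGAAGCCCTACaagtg
Zinc fingers are the part most alike among Klf proteins, and the contribution of other Klf transcripts to this probe was not tested.

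Levels are processed signals on a log2 scale, counted from the 75th percentile of the array, so 0 equals that percentile, and values are compared only within a probe. A probe was called at a limma adjusted p of at most 0.05, over 26973 probes tested, and a change of at least 2-fold. Each gene was read by its leading probe, the brightest that no array saturated. All 10 genes had a probe well above background on all 16 arrays. For 9 of them the leading probe was saturated on no array, and Zfp42, with a single probe, was saturated on 12 of 16 arrays. Counts below are of those 9 genes.

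**Figure D1:**
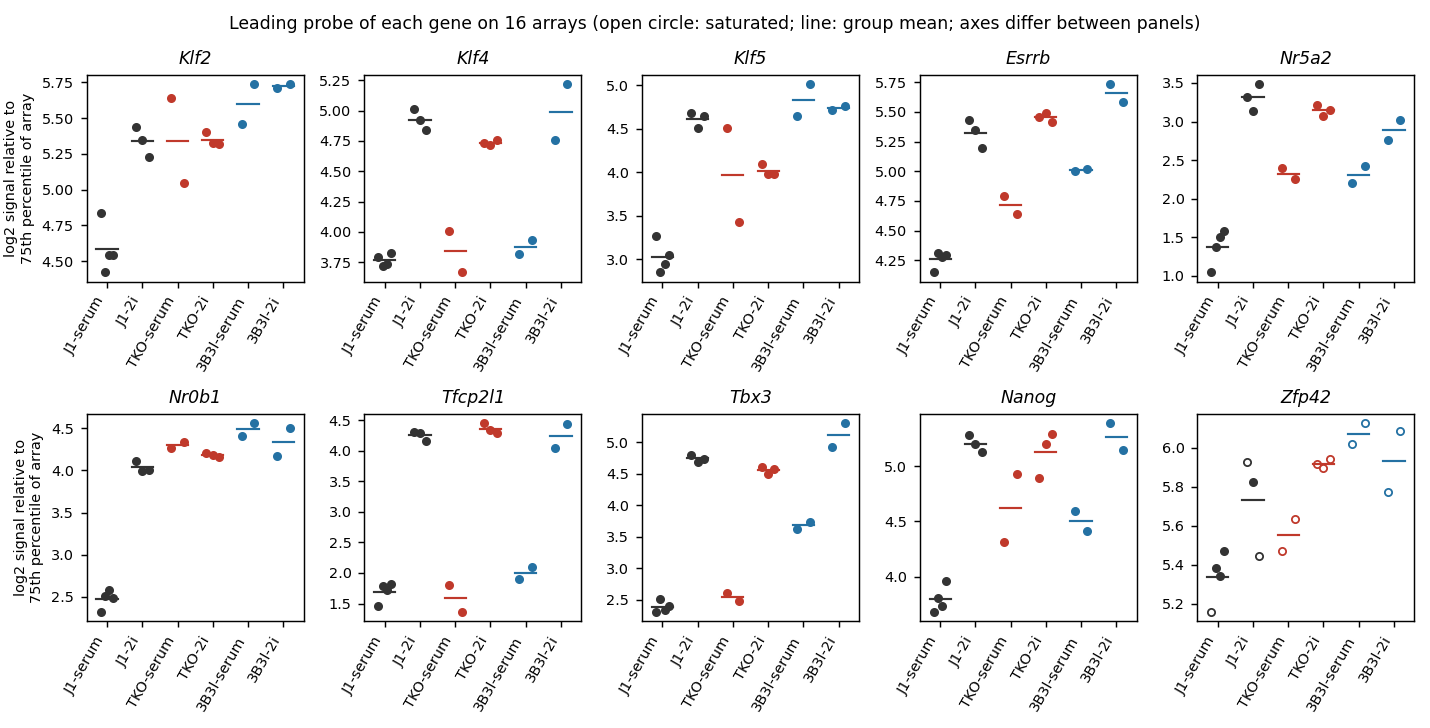
Level of the leading probe of each gene on each of the 16 arrays (vertical axis, log2 signal above the array's 75th percentile) by group (horizontal axis); points are arrays, open circles saturated arrays, and lines group means. J1-serum was lowest of the serum groups for 8 of the 9 unsaturated genes, and Tfcp2l1 and Tbx3 show the widest step between media in each line.

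J1-serum stood apart from the other groups in markers of other cell types, beside every value set against it. Markers of fibroblasts, the cells used as feeders, summed to between 53.7 and 65.8 times the 75th percentile in J1-serum over 15 tested genes. They summed to between 14.4 and 14.9 in TKO-serum, between 40.1 and 41.0 in 3B3l-serum, and at most 5.0 in any 2i group. Of the 15 genes, Dcn entered the test through J1-serum alone and Twist2 through 3B3l-serum alone. Tagln and Acta2, genes of contractile cells, made up between 67.5% and 73.2% of the 3B3l-serum sums, and Tagln had a higher mean there (4.39) than in J1-serum (3.81). Without both genes the sums ran from 27.6 to 36.6 in J1-serum, from 6.11 to 6.63 in TKO-serum and from 10.7 to 13.3 in 3B3l-serum. Col5a1, Col6a1 and Twist2 also had higher means in 3B3l-serum (0.52, -0.80 and -1.23) than in J1-serum (0.04, -1.22 and -2.72). The means of the other tested genes, Tagln aside, were lower in 3B3l-serum than in J1-serum. Markers of primitive endoderm, the other lineage of the inner cell mass, summed to between 11.8 and 13.3 in J1-serum over 7 genes, against at most 1.79 in TKO-serum, 1.70 in 3B3l-serum and 0.984 in 2i. Of these, 4 (Sox7, Dab2, Pdgfra and Foxa2) were well above background on all arrays of J1-serum alone and entered the test through that group, so calls against J1-serum are not counted for this list. Pdgfra and Foxa2 were not well above background on any array outside J1-serum. The trophoblast list, with 7 tested genes, summed to between 45.9 and 49.1 in 3B3l-serum and at most 12.6 elsewhere. Krt8 and Tfap2c made up between 91.4% and 92.2% of the 3B3l-serum sums. Hand1, of the same list, entered the test through 3B3l-serum alone. Markers of ES cells (8 genes) were all well above background on every array. They summed to between 163.2 and 185.5 in J1-serum, 196.6 and 203.3 in TKO-serum, and 227.3 and 247.5 in 3B3l-serum. In 2i the sums ran from 150.0 to 184.5. Pou5f1, saturated on 11 arrays, and Utf1, saturated on 3, are in these sums, which are therefore clipped on some arrays. The part of feeder RNA or of cells of other lineages in the differences from J1-serum was not tested.

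**Figure D2:**
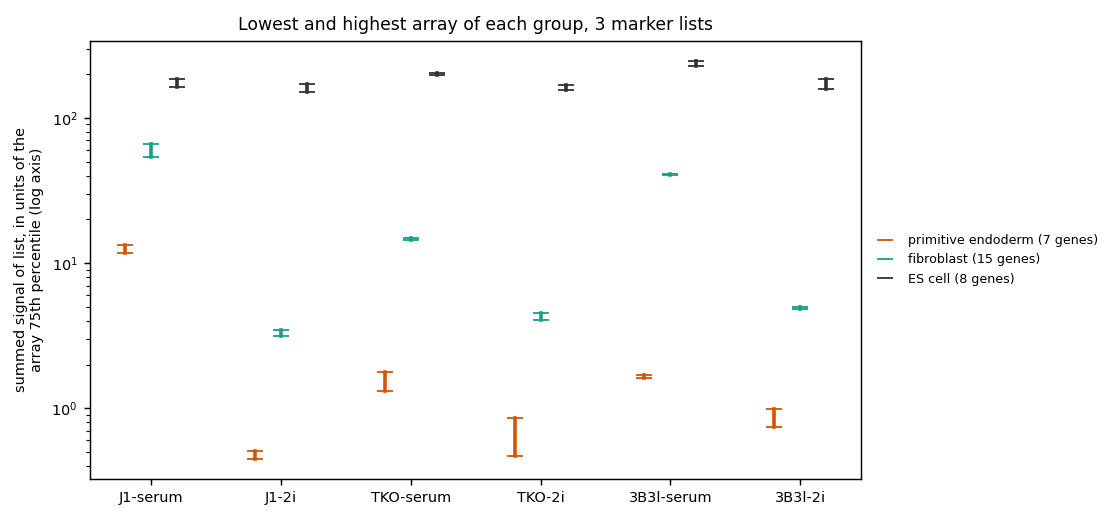
Summed signal of 3 marker lists (vertical axis, log scale, in units of the 75th percentile of the array) for each group; bars run from the lowest to the highest array. The primitive endoderm list lay between 11.8 and 13.3 in J1-serum and at or below 1.79 in every other group. The ES cell sums include probes saturated on some arrays.

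The arrays lay on 3 slides. Slide 3, scanned on a later day than the others, held all 4 3B3l arrays and J1-serum replicate 1. So 3B3l and J1 met only through that array. The TKO arrays lay on slides 1 and 2, so 3B3l and TKO met on no slide and on no scan day. Dnmt3b, inactivated in TKO and supplied in 3B3l, had mean levels of 2.96 in J1-serum, -0.34 in TKO-serum and 5.53 in 3B3l-serum. Its probe was still well above background on 2 of 2 TKO-serum and 3 of 3 TKO-2i arrays.

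The first question was how the factors responded to 2i in wild-type cells. In J1, 8 of the 9 genes were called higher in 2i, where 9.83% of all probes tested were called higher, and none was called lower. The median log2 change was 1.56 over the 9 genes and 0.04 over all probes tested. By the adjusted p alone all 9 were higher, against 25.8% of probes. In TKO 2 of the 9 were called higher, against 5.79% of all probes, and 6 by the adjusted p alone, against 16.9%. In 3B3l 3 were called higher, against 4.92%, and 6 by the adjusted p alone, against 12.8%. The median change over the 9 genes was 0.74 in TKO and 0.65 in 3B3l, beside 0.08 and -0.02 over all probes. No gene was called lower in 2i in any line, where 11.2% of all probes were in J1, 7.94% in TKO and 6.12% in 3B3l. The serum groups differ in feeders as well as in genotype, so a response of J1 includes the removal of feeders, and the 2 cannot be told apart.

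**Figure D3:**
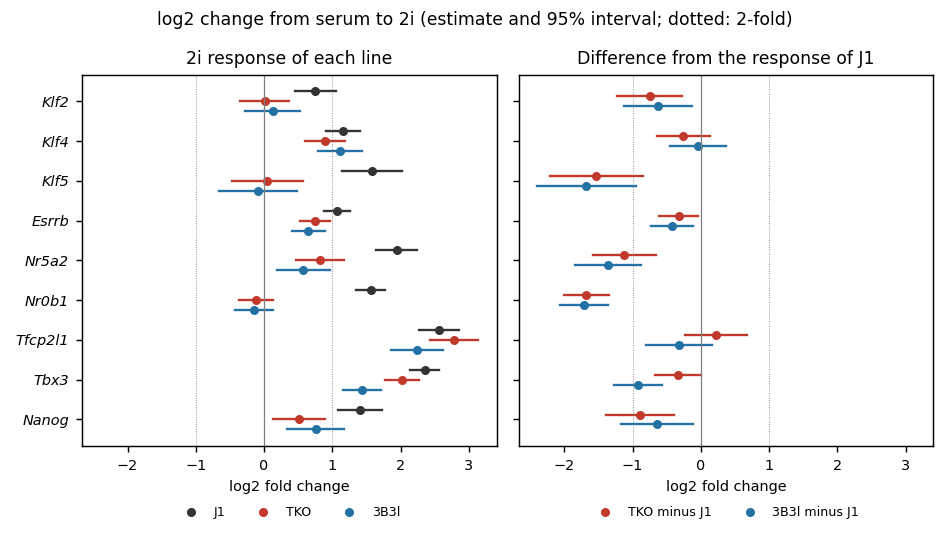
Left, log2 change from serum to 2i of 9 genes in J1, TKO and 3B3l; right, the change in TKO or 3B3l minus that in J1. Points are limma estimates, bars 95% intervals, and dotted lines mark 2-fold. Tfcp2l1 and Tbx3 lie beyond 2-fold in all 3 lines, and Klf5 and Nr0b1 lie beyond 2-fold in J1 and near 0 in TKO and 3B3l.

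The second question was whether lines that lack the DNA methyltransferases or express Dnmt3b and Dnmt3l constitutively differed in these factors within 1 medium. In serum 1 of the 9 genes was called higher in TKO than in J1, where 8.05% of all probes were, and 6 by the adjusted p alone, against 20.8%. In 3B3l 4 were called higher than in J1, against 9.0% of all probes, and 7 by the adjusted p alone, against 26.9%. The median difference over the 9 genes was 0.76 for TKO and 0.94 for 3B3l, beside 0.02 and 0.15 over all probes. Both comparisons use the same J1-serum arrays. The gene called in TKO was Nr0b1, and those in 3B3l were Klf2, Klf5, Nr0b1 and Tbx3. The TKO count depended on single arrays: it was 4 without TKO-serum replicate 2, when Klf2, Klf5 and Nr5a2 joined Nr0b1, and 2 without TKO-serum replicate 1 (with Nanog), J1-serum replicate 1 (with Klf5) or J1-serum replicate 4 (with Nr5a2). With 1 TKO-serum array left, that array is assumed to vary like those of the other groups.

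In 2i none of the 9 genes was called between lines. In TKO against J1, 7.69% of all probes were called in either direction, in 3B3l against J1 15.3%, and in 3B3l against TKO 10.5%. These shares carry the fold limit, and no share is given for the counts without it that follow. At an adjusted p of at most 0.05 without the fold limit the counts were 0, 2 and 2, namely Esrrb and Tbx3 against J1 and Klf5 and Tbx3 against TKO, and of these only Tbx3 against TKO passed whichever array was left out. The means of the 3 lines spanned less in 2i than in serum for 8 of the 9 genes, and for 59.1% of all probes tested. The median span of the line means fell from 0.95 to 0.33 on the log2 scale over the 9 genes, and from 0.71 to 0.60 over all probes. The serum span includes J1-serum, the only group grown on feeders. The median of 3B3l minus TKO over the 9 genes was 0.26 in serum and 0.20 in 2i, beside 0.11 and 0.04 over all probes. J1-serum was the lowest of the serum groups for 8 of the 9 genes, and for 40.2% of all probes. Between TKO and 3B3l in serum only Tbx3 was called, higher in 3B3l, where 4.8% of all probes were called higher. Klf5 joined it without TKO-serum replicate 1 or 3B3l-serum replicate 1.

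**Figure D4:**
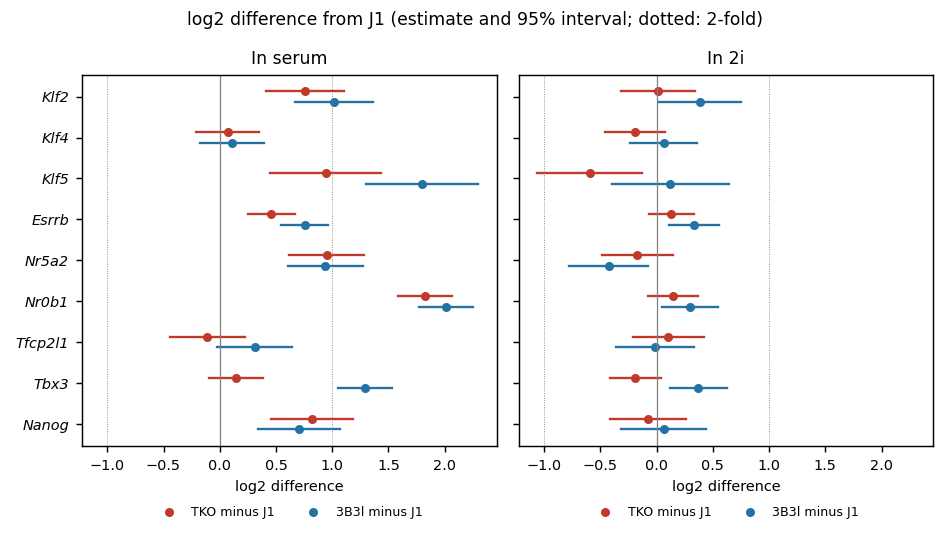
Log2 difference of TKO and of 3B3l from J1 in serum (left) and in 2i (right) for 9 genes; points are limma estimates, bars 95% intervals, and dotted lines mark 2-fold. In serum the estimates reach 2.01 for Nr0b1, and in 2i they run from -0.59 (Klf5, TKO) to 0.39 (Klf2, 3B3l).

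The third question was whether the response to 2i itself differed between lines. It was called smaller in TKO than in J1 for 3 of the 9 genes, where 7.32% of all probes were called in that direction, and smaller in 3B3l than in J1 for 3, where 7.65% were. The same 3 genes, Klf5, Nr5a2 and Nr0b1, made up both counts. In TKO, Klf5 fell just short of 2-fold without TKO-serum replicate 1, as did Nr5a2 with slide as a block. Both comparisons use the same J1 arrays. Between 3B3l and TKO no gene was called, against 8.65% of all probes in either direction, and by the adjusted p alone 1 was, Tbx3. The share of all probes by the adjusted p alone is not given for this difference.

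The Klf genes encode zinc finger factors that bind GC-rich and CACCC sites and partly stand in for one another in self-renewal. Klf4, a direct target of Stat3, rose in 2i in J1 and in 3B3l. Its levels in serum were 3.80, 3.72, 3.74 and 3.82 in J1, 4.01 and 3.67 in TKO, and 3.82 and 3.93 in 3B3l. In 2i they were 5.01, 4.92 and 4.84 in J1, 4.73, 4.72 and 4.76 in TKO, and 4.76 and 5.22 in 3B3l. The serum arrays of the 3 lines overlapped, and every 2i array lay above every serum array. The log2 change was 1.15 ± 0.11 (SE) in J1 (adjusted p = 2.9e-06), 0.90 ± 0.14 in TKO (adjusted p = 0.00023, short of 2-fold) and 1.11 ± 0.15 in 3B3l (adjusted p = 0.00011). The changes did not differ between lines by the test, and the 95% intervals of the differences from J1 ran from -0.65 to 0.13 for TKO and from -0.45 to 0.37 for 3B3l. The call in 3B3l was lost without 3B3l-2i replicate 2, when the change was 0.88, and the TKO change was 1.07 and called without TKO-serum replicate 1.

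Klf5, which supports self-renewal and restrains the primitive endoderm fate, rose in 2i in J1, and its response there exceeded that of the other lines. Its serum levels were 3.27, 2.85, 2.94 and 3.06 in J1, 4.51 and 3.43 in TKO, and 4.64 and 5.01 in 3B3l. In 2i they were 4.69, 4.50 and 4.65 in J1, 4.09, 3.99 and 3.98 in TKO, and 4.71 and 4.76 in 3B3l. All 3B3l arrays in serum lay within or above the range of J1-2i, and the 2 TKO-serum arrays stood 1.07 apart, on either side of TKO-2i. Only 4.14% of all tested probes differed as much between those 2 arrays. The change in 2i was 1.58 ± 0.20 in J1 (3.00-fold, adjusted p = 2.6e-05), 0.05 ± 0.24 in TKO and -0.09 ± 0.26 in 3B3l. The response was smaller than that of J1 by 1.53 ± 0.31 in TKO (adjusted p = 0.0030) and by 1.68 ± 0.33 in 3B3l (adjusted p = 0.0022). Without TKO-serum replicate 1 the first difference was -0.998, just short of 2-fold. In serum 3B3l exceeded J1 by 1.80 ± 0.23 (3.48-fold, adjusted p = 3.4e-05), and by 1.56 against the J1 array of the same slide. TKO exceeded J1 in serum by 0.94 ± 0.23 (adjusted p = 0.0052), which was 0.40 without TKO-serum replicate 1 and 1.48 without replicate 2.

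Klf2, whose protein is stabilised by MEK inhibition, changed by less than 2-fold in 2i in each line. Its serum levels were 4.84, 4.42, 4.54 and 4.54 in J1, 5.64 and 5.05 in TKO, and 5.46 and 5.74 in 3B3l. In 2i they were 5.44, 5.35 and 5.23 in J1, 5.41, 5.33 and 5.32 in TKO, and 5.71 and 5.74 in 3B3l. The J1-serum arrays lay below all others. The 2i change was 0.75 ± 0.14 in J1 (adjusted p = 0.00064, short of 2-fold), 0.01 ± 0.17 in TKO and 0.12 ± 0.18 in 3B3l. In serum 3B3l exceeded J1 by 1.02 ± 0.16 (adjusted p = 0.00020), and by 0.76 against the J1 array of the same slide or with slide as a block, short of 2-fold, as it was without J1-serum replicate 2 (0.96) or 3B3l-serum replicate 2 (0.88). The raw median signal of this probe reached 99.4% of the full scale of the scanner in 3B3l-2i, against at most 75.7% in J1-serum, which left little room above it on that array.

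Esrrb, Nr5a2 and Nr0b1 encode orphan nuclear receptors. Esrrb, which GSK3 inhibition derepresses, binds its sites as a monomer and can stand in for Nanog. Its levels in serum were 4.15, 4.31, 4.27 and 4.29 in J1, 4.79 and 4.64 in TKO, and 5.003 and 5.019 in 3B3l. In 2i they were 5.43, 5.35 and 5.19 in J1, 5.46, 5.49 and 5.42 in TKO, and 5.73 and 5.58 in 3B3l. The serum groups did not overlap, in the order J1, TKO, 3B3l, and every 2i array lay above every serum array. From serum to 2i the change was 1.07 ± 0.09 in J1 (2.10-fold, adjusted p = 3.7e-07), 0.74 ± 0.10 in TKO (adjusted p = 9.9e-05) and 0.65 ± 0.11 in 3B3l (adjusted p = 0.00082), the last 2 short of 2-fold. In serum 3B3l exceeded J1 by 0.75 ± 0.10 (adjusted p = 3.8e-05) and TKO exceeded J1 by 0.46 ± 0.10 (adjusted p = 0.0022). TKO and 3B3l, next to each other in that order, differed by 0.30 ± 0.11 (adjusted p = 0.066). The raw median signal reached 98.7% of full scale in 3B3l-2i.

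Nr5a2, the liver receptor homolog that can replace Oct4 in reprogramming, was called higher in 2i in J1, and the 2i changes of the mutant lines and their serum differences from J1 passed the adjusted p but stayed short of 2-fold. Its leading probe read 1.05, 1.38, 1.50 and 1.58 in J1-serum, 2.39 and 2.26 in TKO-serum, and 2.20 and 2.43 in 3B3l-serum. In 2i it read 3.31, 3.14 and 3.49 in J1, 3.22, 3.07 and 3.15 in TKO, and 2.76 and 3.02 in 3B3l. The TKO and 3B3l arrays in serum lay between the J1 groups without overlap with either. Between the media the change was 1.94 ± 0.14 in J1 (3.84-fold, adjusted p = 1.1e-07), 0.82 ± 0.16 in TKO (adjusted p = 0.0016) and 0.58 ± 0.18 in 3B3l (adjusted p = 0.031), the last 2 short of 2-fold. The response was smaller than in J1 by 1.12 ± 0.21 in TKO (adjusted p = 0.0018) and by 1.36 ± 0.22 in 3B3l (adjusted p = 0.00059). With slide as a block the first was -0.98, just short of 2-fold. In serum TKO and 3B3l exceeded J1 by 0.95 ± 0.15 and 0.94 ± 0.15 (adjusted p = 0.00030 and 0.00027), near 2-fold, and 3B3l exceeded the J1 array of its own slide by 1.27. A second, dimmer probe changed by 1.44 ± 0.19 in J1 (adjusted p = 4.0e-05). Its estimates were 0.44 ± 0.23 for TKO and 0.69 ± 0.25 for 3B3l, neither past the threshold (adjusted p = 0.17 and 0.066). On that probe the 3B3l response was smaller than that of J1 by 0.76 ± 0.32 (adjusted p = 0.10) and 3B3l exceeded J1 in serum by 0.53 ± 0.22 (adjusted p = 0.063), neither of which passed. TKO exceeded J1 in serum on it by 0.93 ± 0.22 (adjusted p = 0.0042) and its response was smaller than that of J1 by 0.999 ± 0.30 (adjusted p = 0.026), both short of 2-fold. Without TKO-serum replicate 1 these were 0.46 and -0.52, and neither passed (adjusted p = 0.091 and 0.14). On the leading probe the 3B3l change in 2i did not pass without 3B3l-serum replicate 1 (0.46, adjusted p = 0.19) or 3B3l-2i replicate 2 (0.44, adjusted p = 0.20).

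Nr0b1, which encodes Dax1, a partner and repressor of Nr5a2 and Oct4, gave the widest separation between lines. Its 10 spots per array were averaged. The serum levels were 2.32, 2.52, 2.58 and 2.49 in J1, 4.27 and 4.33 in TKO, and 4.41 and 4.56 in 3B3l. In 2i they were 4.11, 3.99 and 4.01 in J1, 4.21, 4.19 and 4.16 in TKO, and 4.17 and 4.51 in 3B3l. The 4 J1-serum arrays lay more than 1 log2 unit below all other arrays, which together spanned 3.99 to 4.56. The change in 2i was 1.56 ± 0.10 in J1 (2.95-fold, adjusted p = 3.5e-08), -0.12 ± 0.12 in TKO (95% interval -0.37 to 0.14) and -0.15 ± 0.13 in 3B3l (95% interval -0.43 to 0.12). The response was smaller than in J1 by 1.68 ± 0.15 in TKO (adjusted p = 5.8e-06) and by 1.71 ± 0.16 in 3B3l (adjusted p = 6.6e-06). In serum TKO exceeded J1 by 1.82 ± 0.11 (3.54-fold, adjusted p = 8.5e-08) and 3B3l exceeded J1 by 2.01 ± 0.11 (4.03-fold, adjusted p = 3.2e-08). Within slide 1 the TKO difference was 1.77, and within slide 3 the 3B3l difference was 2.16.

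Tfcp2l1 and Tbx3 lie downstream of LIF and Wnt signalling, and each can sustain self-renewal when overexpressed. Tfcp2l1, a CP2 family factor and target of Stat3, had the largest response of the 9 genes in each line and no difference between lines that passed the test. Its leading probe read 1.45, 1.79, 1.72 and 1.82 in J1-serum, 1.80 and 1.37 in TKO-serum, and 1.91 and 2.10 in 3B3l-serum. In 2i it read 4.31, 4.30 and 4.16 in J1, 4.45, 4.33 and 4.30 in TKO, and 4.04 and 4.44 in 3B3l. All 2i arrays, from 4.04 up, lay above all serum arrays, which reached 2.10. The change was 2.56 ± 0.13 in J1 (5.91-fold, adjusted p = 8.1e-09), 2.78 ± 0.16 in TKO (6.87-fold, adjusted p = 5.2e-08) and 2.24 ± 0.18 in 3B3l (4.72-fold, adjusted p = 1.1e-06). The 95% intervals of the differences from the J1 response ran from -0.24 to 0.67 for TKO and from -0.81 to 0.16 for 3B3l.

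A second Tfcp2l1 probe to the same transcript split the arrays by slide. It read 1.49 in J1-serum replicate 1, on slide 3, and -1.93, -2.04 and -1.85 in the other 3 J1-serum arrays, on slides 1 and 2. The 3B3l arrays, also on slide 3, read 1.84 and 2.02 in serum and 3.81 and 4.27 in 2i, against 0.59 to 0.99 in J1-2i and 0.72 to 1.02 in TKO-2i. J1-serum replicate 1 exceeded the nearest of the other 3 by 3.34, and of 26348 tested probes with all 4 values 10 were higher there than in each of the other 3 by at least 3 log2 units, and 8 were lower by as much. On no other probe of these genes did this array lie more than 0.33 outside the other 3. Over all arrays 3B3l exceeded J1 in serum by 3.02 ± 0.76 (adjusted p = 0.0056) on this probe, and with slide as a block by 0.44 (adjusted p = 0.25). In 2i the difference was 3.26 ± 0.80 over all arrays and -0.17 with slide as a block. The step between media was seen within each slide: it was 2.82 in J1 and 2.43 in TKO on slide 1, and 2.10 in 3B3l on slide 3. On the leading probe J1-serum replicate 1 was the lowest of its group.

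**Figure D5:**
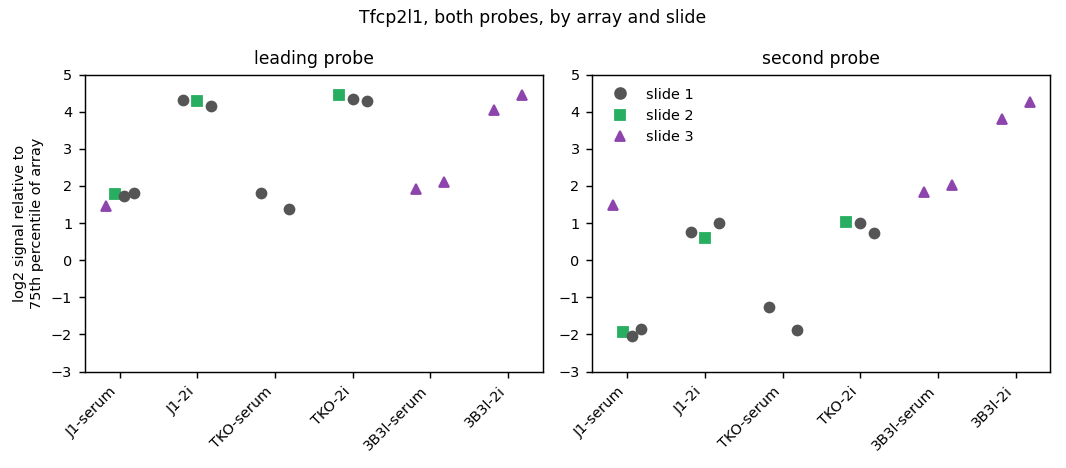
Both Tfcp2l1 probes on each array (vertical axis, log2 signal above the array's 75th percentile) by group, with symbols for the slide. On the second probe the 5 arrays of slide 3 lie above the arrays of the same medium on the other slides, while on the leading probe J1-serum replicate 1 lies at 1.45, below the rest of its group.

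Tbx3, a T-box factor, was the other gene called higher in 2i in all 3 lines. Its serum levels were 2.31, 2.51, 2.34 and 2.40 in J1, 2.60 and 2.47 in TKO, and 3.62 and 3.73 in 3B3l. In 2i they were 4.80, 4.69 and 4.74 in J1, 4.60, 4.49 and 4.57 in TKO, and 4.93 and 5.30 in 3B3l. The J1 and TKO arrays in serum overlapped, and both 3B3l-serum arrays lay more than 1 log2 unit above them. The 2i change was 2.35 ± 0.10 in J1 (5.11-fold, adjusted p = 1.0e-09), 2.02 ± 0.12 in TKO (4.06-fold, adjusted p = 5.1e-08) and 1.43 ± 0.13 in 3B3l (2.70-fold, adjusted p = 3.2e-06). The response of 3B3l was smaller than that of J1 by 0.92 ± 0.16 (adjusted p = 0.00099) and than that of TKO by 0.59 ± 0.17 (adjusted p = 0.042), both short of 2-fold. With 1 array left out at a time the second had an adjusted p above 0.05 in 13 of 16 fits, with values from -0.77 to -0.40. In serum 3B3l exceeded J1 by 1.29 ± 0.11 (2.44-fold, adjusted p = 1.3e-06), by 1.37 within slide 3, and TKO by 1.14 ± 0.13 (2.21-fold, adjusted p = 4.0e-05). The last fell to 0.96 under quantile normalization, short of 2-fold. The trophoblast markers were also highest in 3B3l-serum, and their part in this difference was not tested.

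Nanog, the homeodomain factor whose uneven expression in serum marks this state, was read by 3 probes. The leading probe read 3.69, 3.81, 3.74 and 3.96 in J1-serum, 4.31 and 4.93 in TKO-serum, and 4.60 and 4.41 in 3B3l-serum. In 2i it read 5.28, 5.20 and 5.13 in J1, 4.89, 5.20 and 5.29 in TKO, and 5.39 and 5.14 in 3B3l. The J1-serum arrays lay below all others, and the 3 groups in 2i overlapped. From serum to 2i the change was 1.40 ± 0.15 in J1 (2.64-fold, adjusted p = 4.7e-06), 0.51 ± 0.18 in TKO (adjusted p = 0.044) and 0.76 ± 0.19 in 3B3l (adjusted p = 0.011), the last 2 short of 2-fold. The response was smaller in TKO than in J1 by 0.90 ± 0.23 (adjusted p = 0.012), and it passed 2-fold under quantile normalization, array median scaling or the authors' table. The TKO values depended on the serum array used: without TKO-serum replicate 1 the 2i change was 0.20 (adjusted p = 0.48), and without replicate 2 it was 0.81 (adjusted p = 0.0042) and the response was smaller than that of J1 by 0.59 (adjusted p = 0.061). The 3B3l change was 0.67 without 3B3l-serum replicate 2 and 0.64 without 3B3l-2i replicate 1, neither past the threshold (adjusted p = 0.075 and 0.077). In serum TKO exceeded J1 by 0.82 ± 0.17 (adjusted p = 0.0016), which was 1.13 without TKO-serum replicate 1 and 0.51 without replicate 2, and 3B3l exceeded J1 by 0.70 ± 0.17 (adjusted p = 0.0039). The brightest Nanog probe was saturated on 7 of 16 arrays, 2 of them J1-2i arrays and 1 a J1-serum array. Its change of 0.27 ± 0.15 in J1 thus includes clipped values. On slide 2, where neither J1 array was saturated, its change was 0.29, against 1.39 on the leading probe (1 array per medium). The 2 probes thus differed there without saturation, and the reason was not tested. The third probe was well above background on 4 arrays and was not tested.

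Zfp42, also called Rex1, is a zinc finger gene used as a reporter of the naive state. Its probe was saturated on 1 of 4 J1-serum arrays, 2 of 3 J1-2i arrays and every array of the other groups. Its levels ran from 5.16 to 5.47 in J1-serum, from 5.44 to 5.93 in J1-2i and from 5.47 to 6.13 over the TKO and 3B3l arrays. Every group held at least 1 saturated array, so no fold difference between groups of Zfp42 could be read. On slide 2 neither J1 array was saturated, and the 2i array lay 0.45 above the serum array (1 array per medium).

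Other genes of the network were taken as lists. Of 14 tested partners of the naive state, 6 were called higher in 2i in J1, namely Prdm14, Tcl1, Klf3, Sall1, Il6st and Rex2, with a median over the list of 0.89, where 9.83% of all probes were called higher. In TKO 2 were called higher, Prdm14 and Tcl1, against 5.79% of all probes. In 3B3l 2 were called higher, Prdm14 and Manba, against 4.92% of all probes, and Dppa3 was at least 21.1-fold lower in 3B3l-2i, where it was not well above background. The list medians were 0.23 in TKO and 0.27 in 3B3l. Klf3, a Klf repressor, rose by 2.68 in J1 and changed by 0.73 in TKO and 0.76 in 3B3l. Its serum level was higher than in J1 by 1.88 in TKO and by 1.77 in 3B3l, both called. Prdm14, which represses Dnmt3b and FGF signalling genes, rose in each line, by 2.79 in J1, by 1.57 in TKO and by 1.25 in 3B3l. In serum Prdm14, Gbx2, Manba, Klf3 and Rex2 were called higher in TKO than in J1, where 8.05% of all probes were. In 3B3l Prdm14, Gbx2, Manba, Klf3 and Zfp281 were called higher and Socs3 lower, where 9.0% of all probes were called higher and 8.66% lower. Several of these calls lay near 2-fold and fell short of it without 1 array, among them Rex2 and Il6st in the J1 response, Tcl1 in TKO, Manba in 3B3l, and in serum Prdm14 in TKO and Zfp281 in 3B3l.

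Of the 7 core pluripotency genes reported none was called higher in 2i in any line, and 2, Utf1 and Lin28a, were called lower in each line. Of all probes tested, 11.2% were called lower in 2i in J1, 7.94% in TKO and 6.12% in 3B3l. The shares called higher were 9.83%, 5.79% and 4.92%. Pou5f1 was saturated on 11 arrays. Sox2, the partner of Oct4, changed by 0.64 in J1 and 0.09 in TKO and in 3B3l. Of 12 repressors and genes of primed cells, 3 were called higher and 6 lower in 2i in J1, 0 and 6 in TKO, and 0 and 4 in 3B3l, with medians of -0.71, -1.0 and -0.29. Lef1, 1 of the 6 in TKO, entered the test through TKO-serum alone. That list includes Dnmt3a and Dnmt3b, which the mutant lines lack or replace. Zic2 rose by 1.92 in J1 and changed by -1.03 in TKO, called in both, and by -0.92 in TKO without TKO-serum replicate 1, short of 2-fold. Tcf7l1, the repressor of naive factors on the Wnt branch, was higher in serum than in J1 by 1.84 in 3B3l, which was called. Its 2 TKO-serum arrays read 2.14 and 0.66 against 0.30, -0.71, -0.34 and -0.56 in J1-serum, and the difference of 1.73 was called over both and was 0.987, short of 2-fold, without TKO-serum replicate 1.

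Over the 16 arrays, the pairs of leading probes among the 9 genes had Pearson correlations from 0.50 (Nr0b1 with Tfcp2l1) to 0.97 (Klf4 with Tfcp2l1), as a description in which all probes share arrays, scaling and groups. The genes outside the set whose profiles were most like those of each member were searched among 9680 genes well above background on every array. For Klf4 they were Nfe2l2 and Phf11a (r = 0.98 and 0.97), for Tbx3 Usp46 and Zfp46 (0.99 and 0.98), and for Tfcp2l1 Dlg5 and Arhgef10l (0.99 and 0.98). For Nr0b1 they were Gpatch4 and Fastkd5 (0.99 and 0.98), for Klf5 Aldh18a1 and Bin3 (0.96 and 0.95), and for Klf2 Tbc1d25 and Clec16a (0.96 each). For Esrrb they were Nfatc2ip and Bcat1 (0.98 each), for Nanog Ppil2 and Plekha7 (0.97 each), and for Nr5a2 Zfp607b and Zfp59 (0.99 each).

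The lines differ in DNA methyltransferases, which act on CpG sites, so the CpG content of the promoters is given. RefSeq windows of 300 bases around the start (GRCm38.p6) were at hand for 8 of the genes, with 11 starts; Klf5 and Tbx3 are named only. They held 40 CpG sites for Klf4, 32 for Klf2, 21 for Tfcp2l1, 14 for Nr0b1, 11 for Zfp42, 7 at each start of Esrrb, 2 and 7 for Nr5a2, and 4 at each start of Nanog, against a median of 7 over 32851 windows. The 250 bases before the start are shown for the gene with the widest difference between lines and for the gene with the largest 2i response, with CpG sites in capitals.
Nr0b1 (chrX:86191525-86191774, + strand): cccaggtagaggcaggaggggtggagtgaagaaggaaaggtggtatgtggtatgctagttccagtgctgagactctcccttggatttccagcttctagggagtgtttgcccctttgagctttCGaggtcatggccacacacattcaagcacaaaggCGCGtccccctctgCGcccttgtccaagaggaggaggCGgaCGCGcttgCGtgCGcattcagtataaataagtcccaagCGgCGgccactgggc
Tfcp2l1 (chr1:118627695-118627944, + strand): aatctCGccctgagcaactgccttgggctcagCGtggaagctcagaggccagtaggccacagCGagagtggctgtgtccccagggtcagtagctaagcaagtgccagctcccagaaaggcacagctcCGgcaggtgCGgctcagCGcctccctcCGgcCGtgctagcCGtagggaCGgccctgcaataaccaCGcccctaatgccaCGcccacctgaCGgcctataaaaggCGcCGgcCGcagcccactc
They hold 11 and 16 CpG sites. Their methylation was not analysed here.

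Motifs were searched on both strands in the 11 windows. The STAT site TTCNNNGAA was found once, at the first Esrrb start, 178 bases before it, and in 8.30% of all windows. The octamer ATGCAAAT and the Klf site CCACACCC were each found once, both for Zfp42, and in 1.74% and 3.56% of all windows. The site TCAAGGTCA bound by Esrrb and Nr5a2, the T-box site AGGTGTGA, the Tcf site CTTTGAT and the paired Tfcp2l1 site were found in none of the 11, and in 0.423%, 1.28%, 3.73% and 3.44% of all windows. A match is a description of letters and not a binding site.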

How the data were processed

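Per the file headers, the authors read one-colour (Cy3) images with Agilent Feature Extraction (version 11.5.1.1), on a grid made on mm9, and deposited for each array the processed signal, an intensity after background subtraction, with spot flags. A second deposited table holds the authors' log2 values, quantile-scaled as its values show; it served only as an alternative.

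Here log2 processed signal was reduced by the 75th percentile of each array over 59305 non-control spots. Non-uniform and outlier spots were left out, saturated spots kept, and spots of a probe averaged. The 75th percentile lay between 1019 and 1797 intensity units, and 39.7% to 49.0% of spots passed the flag for signal well above background. Precision is limited by how many arrays each group has. A probe was tested if well above background (at least 50% of its spots) on all arrays of at least 1 group. Probes were named through RefSeq accessions, which matched 28026 of 55681 probes. The 16 arrays were fitted as 6 group means with limma 3.58.1 (R 4.3.3; lmFit, eBayes), with 12 two-sided contrasts, Benjamini-Hochberg adjustment over the probes tested, and 95% intervals from the moderated t distribution. The procedure was tested on simulated data. Values with ± are SE of the fit. Normexp used the median signal in place of the planned mean signal, with an offset of 50.

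Leading probe: the tested probe with the highest mean among those that no array saturates, or else the one saturated on fewest arrays. The 2 genes most like each member were taken by Pearson correlation. Alternatives were normexp, quantile and median scaling, 2 filters, the authors' table, saturated spots left out, slide or replicate number as a block, single slides, each array left out, no fold limit and the brightest probe. Members and lists were chosen with earlier results of these data known. The core list (8 genes), the ES cell list (8), the partner list (14), the repressor list (12), and the markers of fibroblasts (20), primitive endoderm (7) and trophoblast (8) were tested in 8, 8, 14, 12, 15, 7 and 7 genes. In the core list 1 gene is not reported here. A gene without a well measured probe was not tested.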

Additional observations from a re-analysis of the deposited data

Results flagged for a closer look

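Of 14 probes, 1 held a J1-serum array far from the other 3 (Dixon's test at the 95% level, which chance passes in about 1 of 20 groups): the second Tfcp2l1 probe, at 1.49 in J1-serum replicate 1. The test was run in J1-serum only, the largest group, and the smaller groups were not tested.

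The response to 2i differed between lines by an adjusted p of at most 0.05 in 12 tests of a difference between responses. All had a smaller change than in the line it was set against. These tests carry no fold limit, and no share of all probes stands beside their count. Against J1, the TKO response was smaller for Nr0b1 (-1.68), Klf5 (-1.53), Nr5a2 (-1.12, and -0.999 on its second probe), Nanog (-0.90) and Klf2 (-0.75). The 3B3l response was smaller for Nr0b1 (-1.71), Klf5 (-1.68), Nr5a2 (-1.36, and -0.76 with an adjusted p of 0.10 on its second probe), Tbx3 (-0.92) and Esrrb (-0.42). Against TKO, the 3B3l response was smaller for Tbx3 (-0.59). Of the 16 fits that each left out 1 array, the adjusted p was above 0.05 in 12 for Esrrb, 13 for Tbx3 against TKO, 3 for Klf2 and for the second Nr5a2 probe in TKO (-0.45 and -0.52 without TKO-serum replicate 1), and 1 for Nanog (-0.59 without TKO-serum replicate 2), and it was at most 0.05 in every fit for the others. All but the last share the J1-serum arrays, in which fibroblast and primitive endoderm markers were highest, and the part of those markers in the differences was not tested.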

How the results depend on the processing

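Of the 9 genes with an unsaturated leading probe, the count called in the J1 response was 8 under every alternative run except without the fold limit (9) and with the brightest probe of each gene, where the saturated Nanog probe was not called (7), and that in TKO against J1 in 2i was 0 under each. Without the fold limit the counts were 6 for the TKO and 6 for the 3B3l response, 6 and 7 for TKO and 3B3l against J1 in serum, 2 for 3B3l against J1 in 2i, 2 for 3B3l against TKO in serum and 2 in 2i. For the response differences they were 5 for TKO and 5 for 3B3l against J1, and 1 for 3B3l against TKO. Shares of all probes without the fold limit are given above only for the response of each line and the serum differences from J1. The count for 3B3l against TKO in serum, 1, was 2 with normexp and 0 under quantile normalization or the authors' table. With each array left out in turn, the counts ran from 2 to 3 for the TKO and the 3B3l response, 1 to 4 for TKO and 3 to 5 for 3B3l against J1 in serum, 1 to 2 for 3B3l against TKO in serum, and 3 to 4 for both response differences from J1; an arm left with 1 array is assumed to vary like the other groups. Same-numbered arrays of different groups did not deviate together (mean correlation -0.01 over 33 pairs, beside 0.00 over 72 pairs of other numbers). With the replicate block the count for TKO against J1 in serum was 2, Nr5a2 joining at 1.08.

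On the second Tfcp2l1 probe, the differences of 3B3l from J1 and from TKO in 2i reversed with slide as a block, to -0.17 and -0.31. Array median scaling moved the median of all probes in the J1 response from 0.04 to 0.21 and the share of calls that were higher from 46.7% to 57.8%, and that share in the difference of the TKO response from that of J1 from 47.8% to 36.9%; the authors' table moved it from 55.8% to 43.9% in TKO against J1 in 2i. Of 3366 values under alternatives, 3296 kept their side of the thresholds, 33 lost a call, 35 gained one and 2 reversed. Saturation limited Zfp42 and the brightest Nanog probe.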
